A study of Mus musculus with 12 samples.

Results

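The genes described here encode collagens, other structural proteins of the extracellular matrix and the enzymes and inhibitors that process it. They were chosen by symbol, as listed genes named Col with a number, a and a number, genes whose names start with Lox, Adam, Timp, Serpin, Fbn, Fbln, Thbs, Emilin, Ltbp, Mfap, Lama, Lamb or Lamc, and a short set of named matrix genes such as Bgn, Lum, Fn1, Eln, Sparc and Vcan. By this rule 59 of the 912 features listed for the Control and DSS libraries were members, out of 991 features in the whole series. Annotation holds 217 protein-coding symbols that fit the rule, and 159 of them, Dcn, Postn and Tnc included, were not analysed here.

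RNA from mouse colon was sequenced, with 3 libraries in each group. Control mice drank distilled water. DSS mice were given 2.5% dextran sulfate sodium, a sulfated polysaccharide that damages the colon lining, for 5 days and water for the next 5 days, over 3 cycles. BXD_L and BXD_H mice went through the same cycles while receiving Banxia Xiexin Decoction, a herbal mixture, at 7.60 and 15.2 g/kg per day, and their files list 0 of the 59 members each, so the decoction groups enter no comparison below. The labels give no strain, sex or age and do not tie each library to a mouse of its own, so the p-values speak only to variation among libraries, part or all of it possibly technical.

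The extracellular matrix is the protein scaffold outside cells. Fibrillar collagens form its cables, network collagens and laminins form the basement membranes under epithelium and around vessels and muscle, and proteoglycans and glycoproteins link these to cells. Collagen chains are folded with the help of chaperones, trimmed by propeptide-cutting proteases and cross-linked by lysyl oxidases. In the gut wall fibroblasts and smooth muscle make most of the fibrillar matrix, and thickening of this matrix is a known feature of long-standing colitis.

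Values are FPKM, fragment counts scaled to gene length and library total, so levels compared between genes rest on the gene lengths used. The spacing of low values put the library totals between 14390000 and 19160000 fragments in Control and DSS, and 4 members (Col22a1, Serpina3h, Serpina3i and Adamts3) rested on under 10 fragments in at least 1 library. The description text of Control replicate 3 names the DSS course and that of DSS replicate 3 names the low decoction dose, against their titles and treatment labels. Groups followed the titles. The lowest fold among listed features higher in DSS was 2.15, so the files hold no small rises, and neither a rise nor its p-value counts as independent evidence. The colonocyte genes Car4 and Slc26a3 were abundant in the Control libraries, at 742 to 1086 FPKM summed.

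All 59 members had a higher mean in DSS than in Control, by 2.17-fold (Col6a1) to 16.3-fold (Adam12), with a median of 2.88-fold. The 731 listed features with a higher DSS mean had the same median to that precision, 2.88-fold, so the members did not stand out by size. In 58 members every DSS library lay above every Control library. So it was in 706 of the 731 listed features with a higher DSS mean (77.4% of all 912), so the members did not stand out here either. The exception, Adamts3, had the same value, 0.22 FPKM, in Control replicate 1 and DSS replicate 1. Of the 59 members, 43 reached 1 FPKM in at least 3 libraries and were tested with limma on log2(FPKM + 1), a scale that understates the change of low genes. All 43 tested members rose (adjusted p from 0.00244 to 0.0299) and 0 fell, with 0 lower at an unadjusted p under 0.05 as well. Since 99.1% of the 576 features tested were called, 79.2% of them as higher, nearly every tested feature was called whatever its kind. After each library was centred on its median listed feature, which lowered all log2 changes by 0.65, 13 of the 43 members passed as higher and 0 as lower, and Emilin2 alone changed sign. Over all 576 features 19.6% passed as higher and 20.5% as lower in that fit. Among the 43, Adam8, Adamts6, Emilin2 and Serpina3m stayed below 1 FPKM in every Control library and passed the filter through DSS libraries alone.

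**Figure D1:**
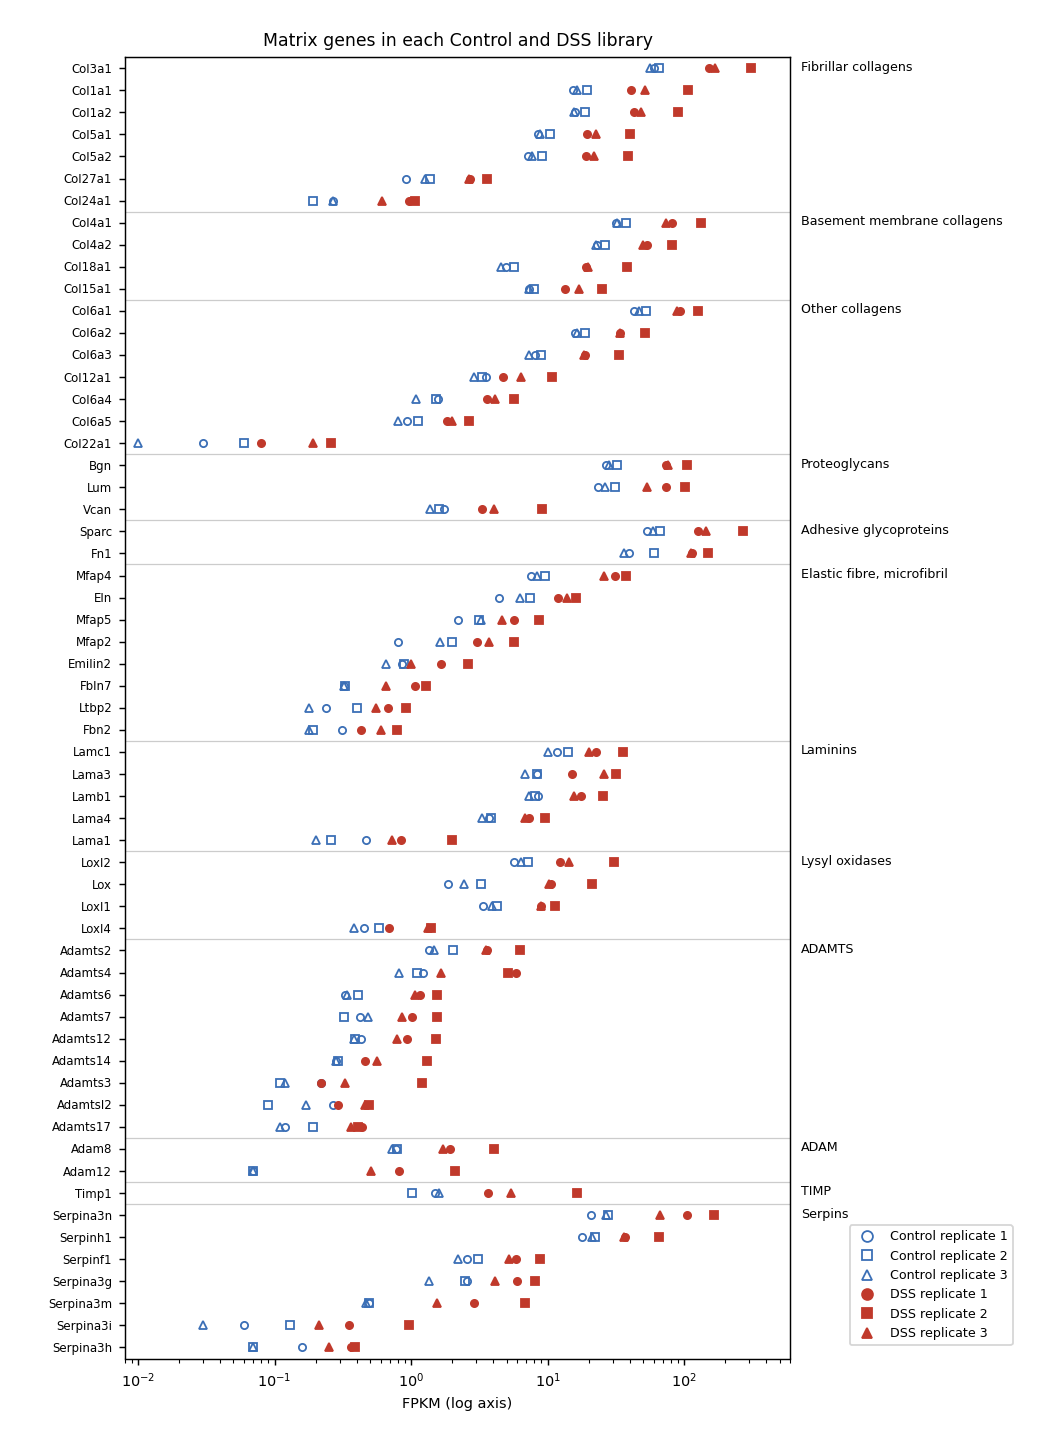
FPKM of the 59 matrix genes on a log axis, grouped by role, with open blue symbols for the Control libraries and filled red symbols for the DSS libraries. The DSS symbols lie to the right of the Control symbols in every row but Adamts3, and the red square, DSS replicate 2, is the rightmost symbol in 57 rows.

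The fibrillar collagens were among the most abundant members. Col3a1, the chain of type III collagen, which is common in gut wall and early scars, was at 59.9, 65.5 and 55.8 FPKM in Control and 151, 310.4 and 169 FPKM in DSS. It was the highest member in all DSS libraries, and DSS replicate 2 held about 1.94 times the mean of DSS replicates 1 and 3. The log2 change was 1.71, SE 0.37, limma adjusted p = 0.00449. Col1a1, a chain of type I collagen, the main cable collagen, measured 15.2, 19.5 and 16.3 FPKM in Control and 40.6, 107 and 51.6 FPKM in DSS. Its partner chain Col1a2 had 15.9, 18.8 and 15.7 FPKM in Control and 43.1, 90.6 and 48.2 FPKM in DSS. Both chains were thus at nearly equal levels per length within each library, with the groups far apart. Col1a1 changed by 1.79 and Col1a2 by 1.72 on the log2 scale. Col5a1 and Col5a2, chains of type V collagen, which sets fibril diameter, followed at lower levels. Col5a1 measured 8.53, 10.3 and 8.84 FPKM in Control and 19.3, 39.97 and 22.7 FPKM in DSS, and Col5a2 measured 7.13, 9.11 and 7.67 FPKM in Control and 19.03, 38.7 and 21.8 FPKM in DSS. The lowest DSS library was 1.87 times the highest Control library for Col5a1 and 2.09 times for Col5a2. The log2 changes were 1.41 and 1.55. The minor fibrillar collagens Col27a1 (1.19 ± 0.246 to 2.99 ± 0.532 FPKM, means ± SD over 3 libraries here and below) and Col24a1 (0.243 ± 0.0462 to 0.88 ± 0.24 FPKM) were far less abundant, and Col24a1 was too low to be tested.

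Among the collagens of basement membranes, Col18a1, whose cleaved end is the angiogenesis inhibitor endostatin, had the largest fold of the collagens above 10 FPKM in DSS. It stood at 4.92, 5.71 and 4.55 FPKM in Control and 19.1, 38.3 and 19.6 FPKM in DSS, 5.07-fold higher in mean (log2 change 2.07, SE 0.32, limma adjusted p = 0.00244). Its lowest DSS library was 3.35 times its highest Control library, the widest such gap among the collagens. Col4a1, the main network chain of basement membranes, was at 31.8, 37.4 and 32.3 FPKM in Control and 81.2, 134 and 73.2 FPKM in DSS. Col4a2, with which it assembles, measured 22.9, 26.5 and 22.4 FPKM in Control and 53.9, 81.3 and 50.04 FPKM in DSS. The 2 genes are transcribed from opposite strands on chromosome 8, Col4a1 from 11198423 to 11312826 and Col4a2 from 11312805 to 11449287, and their models overlap by 22 bases (GENCODE M21 on mm10). Both rose, with log2 changes of 1.43 for Col4a1 and 1.30 for Col4a2. Col15a1, a relative of Col18a1 at the edge of basement membranes, had 7.29, 7.99 and 7.29 FPKM in Control and 13.4, 24.8 and 16.9 FPKM in DSS. Its log2 change, 1.14, was the smallest of these 4 chains.

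Type VI collagen forms beaded filaments next to cells, and its chains Col6a1 and Col6a2 had the smallest folds of the collagens above 10 FPKM in DSS. Col6a1 stood at 42.97, 52.5 and 46.8 FPKM in Control and 93.4, 127 and 88.7 FPKM in DSS, the smallest fold of all members (2.17-fold, log2 change 1.09, SE 0.32, limma adjusted p = 0.0101). Col6a2 was at 15.9, 18.7 and 16.6 FPKM in Control and 33.7, 52.02 and 33.7 FPKM in DSS. Col6a3 measured 8.15, 8.99 and 7.29 FPKM in Control and 18.7, 33.2 and 18.6 FPKM in DSS. The 3 chains ranked in this order in all 6 libraries. Log2 changes were 1.15 for Col6a2 and 1.38 for Col6a3. Col6a2 (chromosome 10 from 76595762 to 76623630) and Col6a1 (76708792 to 76726168) lie on the same strand with 85161 bases between them, whereas Col6a3 lies on chromosome 1 from 90765923 to 90843971. Of the less abundant type VI chains, Col6a4 changed from 1.39 ± 0.273 to 4.48 ± 1.07 FPKM and Col6a5 from 0.957 ± 0.166 to 2.16 ± 0.448 FPKM. Col12a1, a collagen that decorates fibrils, rose from 3.24 ± 0.31 to 7.29 ± 3.15 FPKM, a log2 change of 0.90. Without the 2 libraries of conflicting description text, Col12a1 was the only 1 of the 43 that did not pass (log2 change 0.90, limma adjusted p = 0.0713). In that fit 425 of the 576 features passed as higher and 77 as lower. Col22a1, a collagen of tissue junctions, was at 0.03, 0.06 and 0.01 FPKM in Control and 0.08, 0.26 and 0.19 FPKM in DSS, that is, about 1 to 9 fragments per Control library, and was not tested.

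**Figure D2:**
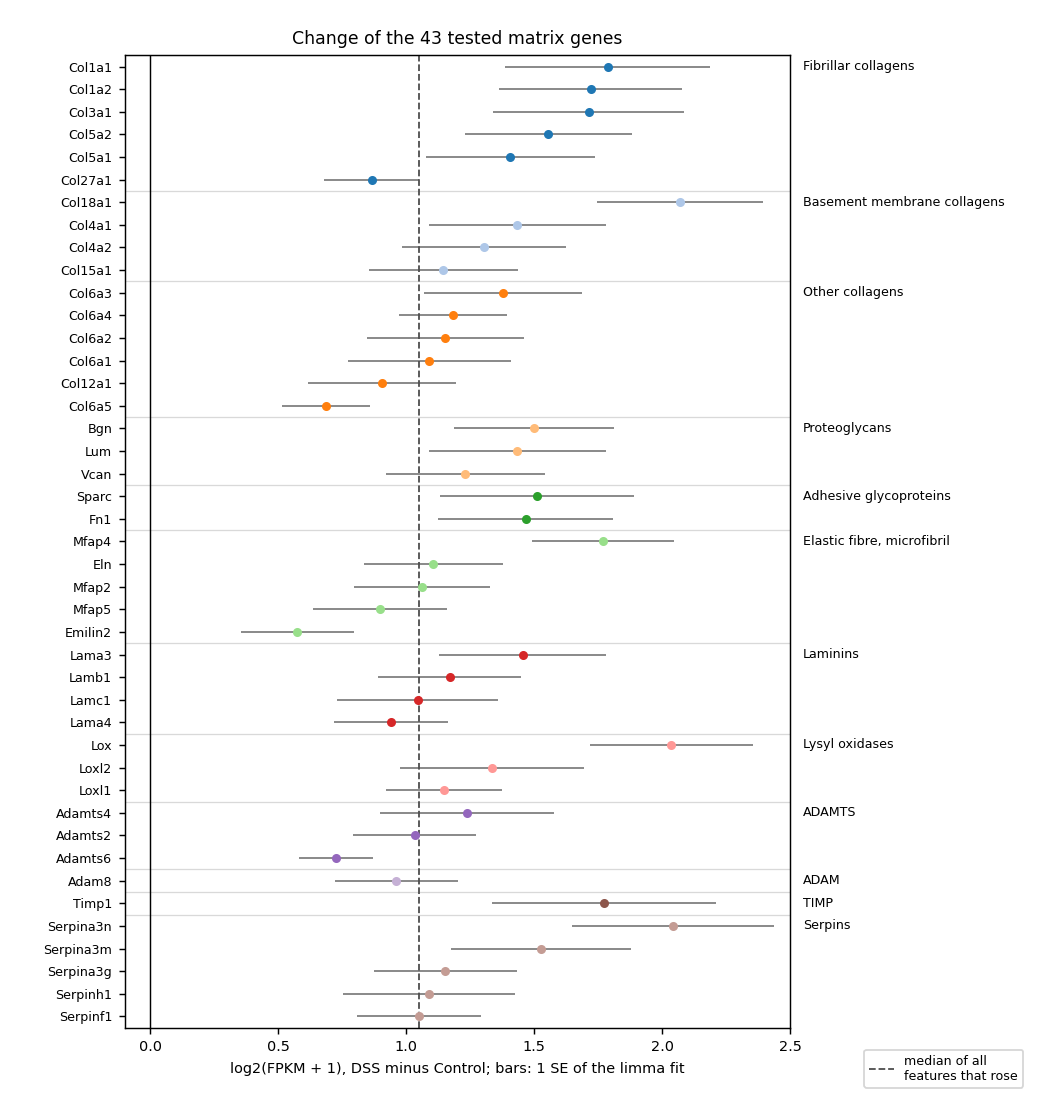
Log2 change of the 43 tested matrix genes, DSS minus Control on the log2(FPKM + 1) scale, with bars of 1 SE of the limma fit, grouped by role. All points lie above 0, from 0.57 for Emilin2 to 2.07 for Col18a1, and the dashed line marks the median of all features that rose, 1.05.

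The proteoglycans and adhesive glycoproteins held several of the highest levels. Sparc, a collagen-binding protein secreted by remodelling tissue, had 53.2, 66.2 and 58.8 FPKM in Control and 127, 269 and 144 FPKM in DSS. Sparc was the highest member in Control replicates 2 and 3 and second to Col3a1 in Control replicate 1 and in all DSS libraries. The log2 change was 1.51, SE 0.38, limma adjusted p = 0.00598. Fn1, fibronectin, an adhesive protein on which collagen assembles, stood at 39.5, 60.3 and 36.2 FPKM in Control and 114, 148 and 112 FPKM in DSS. Control replicate 2 was the highest Control library for Fn1, and the lowest DSS library was still 1.86 times that value. The log2 change was 1.47. The small leucine-rich proteoglycans Bgn and Lum bind collagen fibrils. Bgn, biglycan, was at 26.7, 32.4 and 27.99 FPKM in Control and 73.2, 104 and 76.5 FPKM in DSS. Lum, lumican, measured 23.4, 30.97 and 26.2 FPKM in Control and 73.5, 102 and 53.5 FPKM in DSS. For Lum DSS replicate 3 was the lowest DSS library, at 1.73 times the highest Control library. Log2 changes were 1.5 for Bgn and 1.43 for Lum. Vcan, the large chondroitin sulfate proteoglycan versican, rose from 1.57 ± 0.186 to 5.47 ± 3.12 FPKM, and DSS replicate 2 held 2.46 times the mean of the other DSS libraries.

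Proteins of elastic fibres and microfibrils were mostly low. Mfap4, a microfibril-associated protein, had 7.56, 9.59 and 8.37 FPKM in Control and 31.3, 37.5 and 25.96 FPKM in DSS. Its lowest DSS library was 2.71 times its highest Control library, and its log2 change was 1.77, SE 0.28, limma adjusted p = 0.00244. Eln, elastin, stood at 4.4, 7.41 and 6.29 FPKM in Control and 11.9, 16.2 and 13.8 FPKM in DSS, with no overlap between groups and a log2 change of 1.10. The microfibril proteins Mfap5 (2.86 ± 0.584 to 6.32 ± 2.08 FPKM) and Mfap2 (1.47 ± 0.606 to 4.15 ± 1.35 FPKM) rose as well. Emilin2, a glycoprotein at the elastin surface, had the smallest change of the tested members, a log2 change that turned to -0.0741 after centring. It was at 0.86, 0.88 and 0.65 FPKM in Control and 1.65, 2.59 and 1 FPKM in DSS (log2 change 0.57, SE 0.22, limma adjusted p = 0.0299). Its call was lost without Control replicate 2 (adjusted p = 0.0542), Control replicate 3 (0.0852), DSS replicate 1 (0.0592) or DSS replicate 2 (0.0718), and the log2 change without DSS replicate 2 was 0.36, in the limma fits. Fbln7, Ltbp2 and Fbn2 had Control means of 0.227 to 0.323 FPKM and DSS means of 0.607 to 1.01 FPKM and were not tested.

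Of the laminins, the cross-shaped trimers of basement membranes, Lama3, an alpha chain of epithelium, measured 8.37, 8.3 and 6.84 FPKM in Control and 14.98, 31.8 and 25.9 FPKM in DSS. Its lowest DSS library was replicate 1, still 1.79 times the highest Control library. Lamb1 had 8.57, 8.04 and 7.27 FPKM in Control and 17.6, 25.3 and 15.6 FPKM in DSS. Lamc1, the gamma chain shared by most laminins, stood at 11.6, 14.1 and 10.1 FPKM in Control and 22.8, 35.9 and 20.2 FPKM in DSS. Groups did not overlap in any of the 3, with log2 changes of 1.45 for Lama3, 1.17 for Lamb1 and 1.04 for Lamc1. Lama4, an alpha chain of vessels and muscle, rose from 3.62 ± 0.267 to 7.93 ± 1.43 FPKM, and Lama1 stood at 0.31 ± 0.142 and 1.19 ± 0.704 FPKM and was not tested.

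Lysyl oxidases cross-link collagen and elastin. Lox, the founding member, was at 1.86, 3.24 and 2.45 FPKM in Control and 10.5, 21.1 and 10.3 FPKM in DSS. It was 5.56-fold higher in mean (log2 change 2.04, SE 0.32, limma adjusted p = 0.00244), and its lowest DSS library was 3.18 times its highest Control library. Loxl2 measured 5.65, 7.21 and 6.34 FPKM in Control and 12.2, 30.8 and 14.3 FPKM in DSS. DSS replicate 2 held 2.32 times the mean of the other DSS libraries for Loxl2, and the log2 change was 1.33. Loxl1, which acts mainly on elastin, rose from 3.84 ± 0.439 to 9.74 ± 1.39 FPKM. Loxl4 stood at 0.47 ± 0.101 and 1.14 ± 0.394 FPKM and was not tested.

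The matrix-processing ADAMTS proteases were low throughout. Adamts2, which trims fibrillar procollagens at their N-terminal end, had 1.36, 2.03 and 1.47 FPKM in Control and 3.59, 6.25 and 3.54 FPKM in DSS (log2 change 1.03). Adamts4, which cuts large proteoglycans such as versican, stood at 1.23, 1.11 and 0.81 FPKM in Control and 5.87, 5.11 and 1.65 FPKM in DSS. DSS replicate 1 was the highest library for Adamts4 and DSS replicate 3 was 1.34 times the highest Control library, and the log2 change was 1.24. Adamts17 was the only other member whose highest DSS library was replicate 1. Adamts14 and Adamts3, the other procollagen N-propeptidases listed, were below 1 FPKM in all Control libraries, and only DSS replicate 2 exceeded 1 FPKM. Adamts3 was at 0.22, 0.11 and 0.12 FPKM in Control and 0.22, 1.21 and 0.33 FPKM in DSS. Adamts6 rose from 0.36 ± 0.0436 to 1.26 ± 0.259 FPKM, and Adamts7 (0.407 ± 0.0808 and 1.14 ± 0.361 FPKM), Adamts12 (0.40 ± 0.0265 and 1.08 ± 0.382 FPKM) and the protease-free relative Adamtsl2 (0.177 ± 0.0902 and 0.413 ± 0.108 FPKM) were not tested. In a fit with no filter on low values, Adamts3 was the only 1 of the 59 members that did not pass (log2 change 0.41, SE 0.21, limma adjusted p = 0.0819). Of the 912 features in that fit, 708 passed as higher and 169 as lower. Of the membrane-anchored ADAM proteases, Adam8, found on leukocytes among other cells, measured 0.78, 0.79 and 0.72 FPKM in Control and 1.94, 4.05 and 1.72 FPKM in DSS (log2 change 0.96). Adam12, a protease of activated mesenchymal cells, was at 0.07, 0.07 and 0.07 FPKM in Control and 0.82, 2.1 and 0.51 FPKM in DSS, which gave the largest fold of any member but rested on 10.7 to 12.3 estimated fragments per Control library.

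Timp1, which blocks matrix metalloproteinases, was the only listed member of its family. Timp1 (chromosome X from 20870166 to 20874735) had 1.49, 1.01 and 1.6 FPKM in Control and 3.65, 16.5 and 5.35 FPKM in DSS. DSS replicate 2 was 3.67 times the mean of DSS replicates 1 and 3, the largest such excess among tested members, and all DSS libraries exceeded all Control libraries (log2 change 1.77, SE 0.44, limma adjusted p = 0.00571). Its RefSeq upstream sequence is given because of this excess, with the 250 bases before the start (chrX:20869916-20870165, plus strand, GRCm38.p6). Capitals mark matches to CCAAT and to the GC box GGGCGG on either strand, with the CCAAT match starting 190 and the GC box match 8 bases before the start.
Timp1: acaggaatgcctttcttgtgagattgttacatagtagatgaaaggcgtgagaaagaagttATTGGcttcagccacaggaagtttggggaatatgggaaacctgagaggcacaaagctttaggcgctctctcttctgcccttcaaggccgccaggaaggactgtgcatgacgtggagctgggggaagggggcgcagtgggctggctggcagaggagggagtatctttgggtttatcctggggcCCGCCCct

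Serpins are inhibitors of serine proteases, though some have other tasks. Serpinh1, a collagen chaperone of the endoplasmic reticulum, stood at 17.8, 22.2 and 21.2 FPKM in Control and 36.8, 64.9 and 36.4 FPKM in DSS. Its log2 change was smaller than that of the collagen it folds, 1.09 against 1.79 for Col1a1, which is taken up below as a ratio. Serpina3n, a secreted inhibitor of leukocyte proteases raised in inflammation, was at 20.9, 27.5 and 26.6 FPKM in Control and 105, 167 and 66.8 FPKM in DSS. It was the third highest member in DSS replicate 2, and its log2 change was 2.04, SE 0.39, limma adjusted p = 0.00365. Serpinf1, an anti-angiogenic secreted protein, rose from 2.63 ± 0.444 to 6.61 ± 1.87 FPKM.

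All 5 listed Serpina3 genes lie on the plus strand of chromosome 12 between 104236245 and 104414329, in the order Serpina3g, Serpina3h, Serpina3i, Serpina3m and Serpina3n. Serpina3g rose from 2.14 ± 0.683 to 6.04 ± 2 FPKM and Serpina3m from 0.483 ± 0.0115 to 3.76 ± 2.74 FPKM. Serpina3i (0.0733 ± 0.0513 and 0.51 ± 0.404 FPKM) and Serpina3h (0.10 ± 0.0520 and 0.333 ± 0.0737 FPKM), annotated as a transcribed pseudogene, were not tested and rested on as few as about 1 to 2 fragments in a Control library. These genes are close copies, and the sources used here do not say how reads fitting several copies were assigned, so the values of single copies are uncertain. In every copy the highest DSS library was replicate 2 and the lowest was replicate 3.

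The upstream sequences of 3 Serpina3 genes are printed because these neighbouring copies were higher in every DSS library than in any Control library (Serpina3i untested) and share letters there. Each line is the 250 bases before the RefSeq start on the plus strand of GRCm38.p6, for Serpina3g chr12:104235897-104236146, for Serpina3i chr12:104262872-104263121 and for Serpina3n chr12:104406458-104406707. Capitals mark matches on either strand to the NF-kB motif (GGG, then any pair of bases, then TTTCC), to TTCNNNGAA, bound by STAT factors, and to CCAAT.
Serpina3g: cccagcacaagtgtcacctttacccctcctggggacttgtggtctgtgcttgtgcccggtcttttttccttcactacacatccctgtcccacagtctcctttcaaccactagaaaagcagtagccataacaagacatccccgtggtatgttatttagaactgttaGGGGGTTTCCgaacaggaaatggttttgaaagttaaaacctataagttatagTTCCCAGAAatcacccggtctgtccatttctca
Serpina3i: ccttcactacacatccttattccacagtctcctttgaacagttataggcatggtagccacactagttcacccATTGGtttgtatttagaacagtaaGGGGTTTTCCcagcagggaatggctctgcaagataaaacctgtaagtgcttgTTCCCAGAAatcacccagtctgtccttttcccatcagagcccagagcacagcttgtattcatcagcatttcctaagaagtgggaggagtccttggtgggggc
Serpina3n: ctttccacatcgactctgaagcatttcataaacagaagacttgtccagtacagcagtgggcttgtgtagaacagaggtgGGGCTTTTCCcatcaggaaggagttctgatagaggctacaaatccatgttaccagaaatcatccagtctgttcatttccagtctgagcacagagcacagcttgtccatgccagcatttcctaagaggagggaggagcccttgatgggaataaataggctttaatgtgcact
The Serpina3g and Serpina3i windows were identical at 77.9% of 181 aligned bases, Serpina3i and Serpina3n at 71.2% of 229, and Serpina3g and Serpina3n at 51.9% of 231. Whole windows were aligned end to end, although their NF-kB motif matches lie at unlike distances from the start. Stretches that match at an offset can be missed in this way, so the 51.9% does not show that Serpina3g and Serpina3n are unrelated there. All 3 hold an NF-kB motif match, which begins 85 bases before the RefSeq start in Serpina3g, 154 in Serpina3i and 171 in Serpina3n. The GENCODE gene starts are 104236245 for Serpina3g, 104263122 for Serpina3i and 104406729 for Serpina3n. Only that of Serpina3i directly follows its window, so the distances depend on the start used. Serpina3g and Serpina3i also hold the same TTCCCAGAA match. A match is a description of the letters and not a binding site.

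RefSeq windows matched 36 of the 59 members. In these, GGGCGG was present in 22 members (61.1%) against 35.4% of all 27025 genes in the table, and CCAAT in 14 (38.9%) against 37.5%. The 27025 genes were not filtered by gene type, whereas 58 of the 59 members are protein coding. The sets compared here and below are therefore not matched, and no difference in share was tested. The NF-kB motif was present in 3 members, the Serpina3 genes above (8.33% against 1.65%). These are neighbouring copies whose windows share letters, so they do not count as 3 independent members. TTCNNNGAA was present in 4 members (11.1% against 8.13%), Serpina3g and Serpina3i among them. TATAAA was present in 2 (5.56% against 14.3%) and the AP-1 motif TGANTCA in 1 (2.78% against 7.82%). One TATAAA match was in Col3a1, the most abundant collagen, whose window (chr1:45311288-45311537, plus strand) is shown with the match in capitals. It begins 117 bases before the start.
Col3a1: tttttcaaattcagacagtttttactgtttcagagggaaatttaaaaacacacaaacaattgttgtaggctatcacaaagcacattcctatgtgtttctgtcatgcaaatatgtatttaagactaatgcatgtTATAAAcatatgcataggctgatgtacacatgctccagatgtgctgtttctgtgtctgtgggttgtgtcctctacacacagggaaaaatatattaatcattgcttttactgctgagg

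The DSS libraries were not alike. DSS replicate 2 was the highest DSS library in 57 of 59 members (96.6%), against 453 of the 731 listed features with a higher DSS mean (62.0%). The value of DSS replicate 2 over the mean of replicates 1 and 3 had a median of 1.66 over the members and 1.29 over those 731 features. It was over 2 in 12 members. By role the median ratio was highest for Timp1, alone in its role (3.67), and the 2 ADAM proteases (2.69). It was 1.90 in fibrillar collagens, 1.77 in serpins, 1.70 in lysyl oxidases and 1.69 in basement membrane collagens. Laminins had 1.55, and elastic fibre proteins had the lowest median, 1.51. Single members ranged from 1.03 (Adamts17) to 4.4 (Adamts3). The Control libraries were closer together, with a median coefficient of variation over the members of 13.1% against 34.3% in DSS. Over the 731 features these medians were 27.9% and 28.3%. Without DSS replicate 2, 42 of the 43 tested members were past the threshold, Emilin2 being the exception, with log2 changes from 0.36 to 1.75. In that fit 77.3% of the 576 features were past it as higher.

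**Figure D3:**
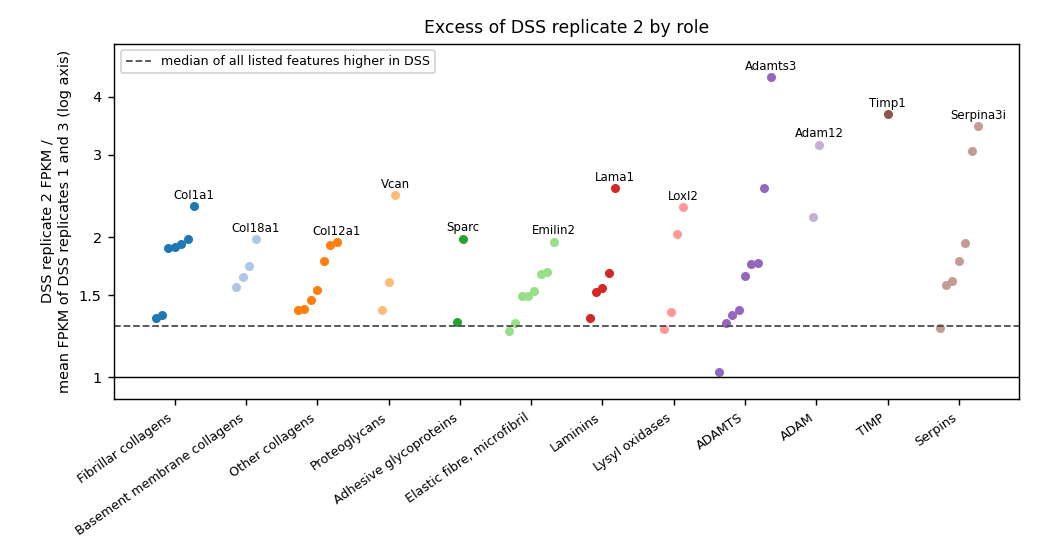
FPKM in DSS replicate 2 divided by the mean of DSS replicates 1 and 3 (log axis), 1 point per matrix gene, grouped by role, with the highest gene of each role named. All 59 points lie above 1, from 1.03 for Adamts17 to 4.4 for Adamts3, and the dashed line is the median of the 731 listed features higher in DSS, 1.29.

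Markers of cell types also differed between the groups, and not all followed the matrix genes across the DSS libraries. All 8 listed fibroblast markers of a list of 18, among them Igfbp7, Igfbp5 and Grem1, rose, from a summed 138 to 177 FPKM in Control to 349 to 641 FPKM in DSS. The highest sum, 641 FPKM, was in DSS replicate 2. The counts of markers that rose stand beside 79.2% of all tested features called higher. Summed fibrillar collagen over summed fibroblast marker FPKM was 0.784, 0.707 and 0.659 in Control replicates 1, 2 and 3 and 0.618, 0.922 and 0.908 in the DSS replicates, so this quotient overlapped between groups. Both sums hold only listed genes, all of them higher in mean in DSS, with 8 of the 18 fibroblast markers. The overlap therefore carries no evidence on how collagen and fibroblast content relate, which was not tested. The colonocyte markers Car4 and Slc26a3, the listed 2 of 13 epithelial markers, fell, from 742 to 1086 FPKM summed in Control to 320.1, 109 and 457 FPKM in DSS replicates 1, 2 and 3, lowest in the library where matrix genes were highest. Neutrophil markers (5 of 8 listed, 4 tested and higher) summed to 1.29 to 1.67 FPKM in Control and 13.3, 49.9 and 7.00 FPKM in the DSS replicates, and Cxcr2 was listed at 0 in Control replicates 1 and 2. The 4 listed macrophage and monocyte markers of 10 summed to 16.1 to 21.6 FPKM in Control and 39.4 to 47.7 FPKM in DSS, and 5 listed T cell markers of 8 to 8.44 to 11.5 FPKM in Control and 20.97 to 29.7 FPKM in DSS. Both sets were highest in DSS replicate 1. Of endothelial markers only Cldn5 (1 of 11) and of B and plasma cell markers only Igkc (1 of 8) were listed. Cldn5 and Igkc were higher in DSS, and highest in DSS replicate 1. No smooth muscle or pericyte, platelet or enteric glia and neuron marker was listed. The part of these cells in the matrix values was not tested. In bulk RNA, more cells of a type and more RNA per cell cannot be told apart.

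Ratios of partner genes within a library do not depend on the library total. In all, 11 ratios were compared between groups by a two-sided exact permutation test of the mean log2 ratio, in which 3 libraries against 3 cannot give a p below 0.1, so none could pass 0.05. They were chosen as known partners with values of the genes already seen. In 6 ratios the groups did not overlap (exact permutation p = 0.1, Benjamini-Hochberg adjusted p = 0.183 for each), and in 5 they did. Loxl2 over Lox went from 3.04, 2.23 and 2.59 in the Control libraries to 1.16, 1.46 and 1.39 in the DSS libraries, so Lox drew closer to the level of Loxl2. Serpinh1 over Col1a1 was 1.17, 1.14 and 1.30 in Control and 0.907, 0.605 and 0.705 in DSS, and every DSS library had less chaperone transcript per type I collagen transcript than any Control library. Lox over Col1a1 was 0.122, 0.166 and 0.150 in Control and 0.259, 0.197 and 0.2 in DSS. Col6a3 over Col6a1 moved from 0.172 ± 0.0169 to 0.224 ± 0.0331, Col4a1 over Col4a2 from 1.41 ± 0.0236 to 1.54 ± 0.0951, and Col5a1 over Col5a2 from 1.16 ± 0.0321 to 1.03 ± 0.0143.

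The ratios whose groups overlapped were Col1a1 over Col1a2 (1.01 ± 0.0473 in Control and 1.06 ± 0.121 in DSS, exact permutation p = 0.5), Col3a1 over Col1a1 (3.57 ± 0.312 and 3.30 ± 0.419, exact p = 0.4) and Col6a2 over Col6a1 (0.360 ± 0.00867 and 0.384 ± 0.0248, exact p = 0.2). Lamb1 over Lamc1 (exact p = 0.3) and Lama4 over Lamc1 (exact p = 0.9) also overlapped. The chains of type I collagen thus stayed near 1 to 1 per length in both groups, between 0.941 and 1.18. Annotated exon lengths are 6563 bases for Col1a1 and 12426 for Col1a2, so this level depends on the lengths used.

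**Figure D4:**
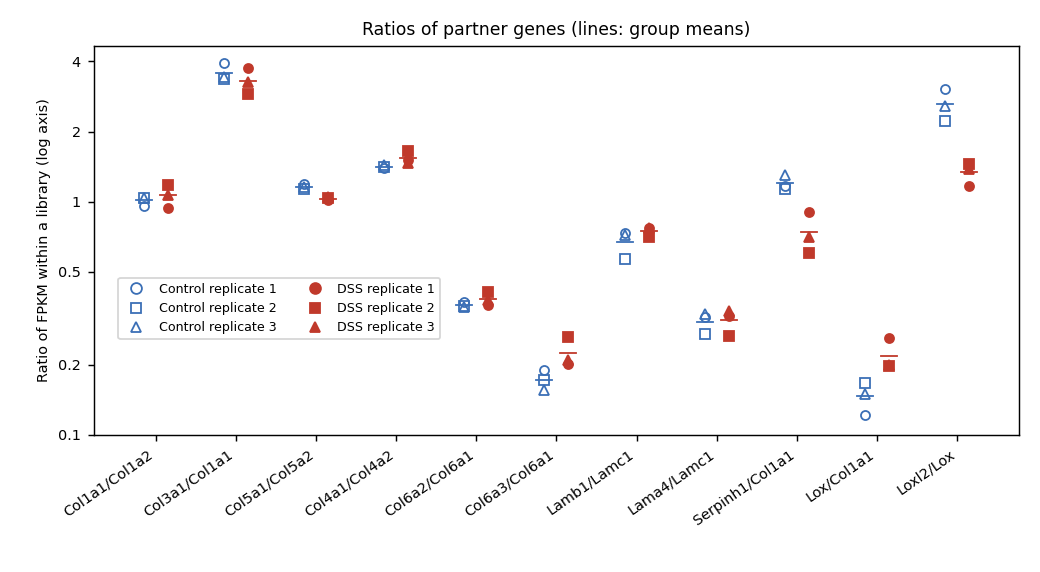
Ratio of FPKM of 11 gene pairs within each library (log axis), open blue symbols for Control and filled red symbols for DSS, lines for group means. Loxl2/Lox and Serpinh1/Col1a1 are lower in all DSS libraries, Lox/Col1a1 is higher, and Col1a1/Col1a2 lies between 0.941 and 1.18 in both groups.

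Other genes of matrix biology, from lists of named genes, were covered in part. Of 24 other genes of collagen synthesis and maturation, 3 were listed and 2 tested, and both rose: the procollagen C-proteinase Bmp1 (2.77 ± 0.0252 to 6.23 ± 1.38 FPKM) and the collagen chaperone Fkbp10 (3.13 ± 0.771 to 7.33 ± 2.54 FPKM). Of 65 further matrix glycoproteins and proteoglycans, 13 were listed and all 10 tested rose, with the calcification inhibitor Mgp (23.1 ± 2.6 to 54.5 ± 15.99 FPKM), the basement membrane linker Nid1 (13.3 ± 1.35 to 31.9 ± 7.98 FPKM) and Spon2 (8.5 ± 0.565 to 20.5 ± 6.56 FPKM) the most abundant. All 12 tested of 29 matrix metalloproteinases, cathepsins and plasminogen activators rose, with the gelatinase Mmp2 (13.8 ± 1.77 to 44.3 ± 19.8 FPKM) the most abundant. Of 29 TGF-beta family ligands, receptors and antagonists 7 were tested, of which 6 rose, among them the BMP antagonist Grem1 (15.3 ± 3.22 to 71.4 ± 38.4 FPKM) and Fstl1 (15.7 ± 2.53 to 39.1 ± 13.4 FPKM), and 1, the ligand Gdf15, fell (1.5 ± 0.465 to 0.777 ± 0.367 FPKM). Of 31 integrins and other collagen receptors, 2 were listed, Itgb8 and Gp6, neither high enough to be tested. Mgp and Grem1 also stand in the list of fibroblast markers. These counts of rises are to be read against the 79.2% of tested features called as higher (99.1% called in either direction).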

How the data were processed

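Mouse colon RNA (TRIzol extraction, NEBNext Ultra libraries, per the labels' protocols) was deposited as FPKM, rounded to 2 decimals, with a column for each library. The submitters' processing notes name bcl2fastq, FastQC, fastp and mm10. The tools and rules for alignment, counting, strand, reads fitting several genes and the choice of listed features were not given in the sources used here. FPKM leaves differences in composition between libraries uncorrected.

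Of 991 features 981 matched GENCODE M21, which gave symbols, coordinates (1-based, mm10) and exon lengths. Totals were recovered by scanning 5000000 to 30000000 fragments for the value at which genes with exons under 1200 bases and at most 100 fragments came out at whole fragments (tolerance: file rounding plus 0.02, at most 0.2 fragments). At the chosen totals 89.5 to 96.7% of 57 to 90 genes were whole, against 12.5 to 17.2% from rounding alone. At most 25 of 912 values were equal between libraries of a group, and each library counted as 1 sample.

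Groups follow the titles. limma 3.58.1 (R 4.3.3) was fitted on log2(FPKM + 1), pseudocount 1, over all 12 libraries with 1 mean per group and a trended spread. Features with at least 1 FPKM in 3 or more libraries were tested, two-sided, with Benjamini-Hochberg adjustment over all features tested and a threshold of 0.05. The fit was also run on values simulated for the Control and DSS libraries alone, with no filter and most features unchanged. In the data nearly every tested feature was called, so that run does not vouch for the fit used here. Ratios were tested by exact permutation over libraries. Alternatives were other pseudocounts and filters, centring, the Control and DSS libraries alone, no trend, a replicate block, each library left out, and other groupings of the 2 conflicting libraries.

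The members and lists were chosen with earlier results of these data known. Values in every library are given for members with a Control or DSS mean of at least 10 FPKM and for the 2 most abundant of each role, and at most 3 genes are named from other lists. Genes named beyond this complete a role or were picked with their values in view, as were the ratios, motifs and printed sequences. Upstream sequences are RefSeq's on GRCm38.p6, aligned with Biopython 1.88.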

Additional observations from a re-analysis of the deposited data

How the results depend on the processing

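All 43 tested members passed as higher, with 0 lower, at pseudocounts of 0.1 and 0.5 and with the replicate number as a block. The same held in the Control and DSS libraries alone, where the members' log2 changes cannot differ because the decoction files list no member. In these fits 457 to 458 of the 576 features passed as higher and 113 to 116 as lower. The block has no basis in the labels, since same-numbered Control and DSS libraries did not deviate together (correlations of -0.05, 0.02 and 0.08 over 576 features), and it changed no member's call. With a minimum of 5 FPKM 28 members were tested and all 28 passed, beside 196 higher and 68 lower of 265 features. The count of members is lower there because fewer were tested. Leaving out each library in turn left 42 to 43 members higher and 0 lower. Over the 576 features these fits called 440 to 453 higher and 88 to 111 lower. The median log2 change over the 59 members was then 0.86 to 1.19 (1.09 with all libraries, beside 0.67 over the 912 features). That median was 1.45 at a pseudocount of 0.1, by the construction of the scale. Without a trend 42 passed (all but Emilin2, limma adjusted p = 0.0543), beside 453 higher and 112 lower of 576 features. Subtracting each library's median over listed features lowered all log2 changes by 0.65, since rises outnumber falls in the files. The median of the members was then 0.44, 13 of 43 passed, all higher (24 at an unadjusted p under 0.05, 0 lower), beside 113 higher and 118 lower of 576 features and a median of 0.022 over the 912 listed, and Emilin2 turned to -0.0741 (adjusted p = 0.698). The 13 were Col1a1, Col1a2, Col3a1, Col5a2, Col6a3, Col6a4, Col18a1, Bgn, Lum, Mfap4, Lox, Loxl1 and Serpina3n. With groups taken from the description text 0 of 43 passed in limma, higher or lower (2 higher and 0 lower at an unadjusted p under 0.05), beside 4 higher and 4 lower of 576 features, with a median of 0.78. Higher pseudocounts shrink low genes most: Lox exceeded Col18a1 at 0.1 (2.38 against 2.25) and 0.5 (2.21 against 2.16) but not at 1. How the listed features were chosen is unknown, so the fit with groups from the description text does not tell which text is right. The 6 partner ratios whose groups did not overlap kept their direction without each library in turn, an alternative chosen after seeing the data. Depth limits Col22a1, Serpina3h, Serpina3i and Adamts3 most.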
